A study of Homo sapiens with 47 samples.

Results

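Mediator is a large protein complex that works with RNA polymerase II, and the genes described here are the 33 human genes that encode its subunits, including both members of each pair of paralogues in its kinase module. They were chosen by name as subunits of the complex, with earlier results of these data known, and make up 33 of the 20136 protein-coding genes of the annotation. A ChIP-seq peak was assigned to a gene when it lay within 1 kb of any annotated transcription start site of that gene, and where several did, the highest was used. The peaks come from 47 lists of Ishikawa cells, an endometrial carcinoma line, kept in media without hormones and given plasmids that express gRNAs and a dCas9 fusion, which was dCas9-VP16(10x) in some cultures and dCas9-p300(core) in the others. dCas9-VP16(10x) is a dead Cas9 joined to repeats of the VP16 activation domain, and dCas9-p300(core) is a dead Cas9 joined to the acetyltransferase core of p300. gRNAs went in as Pool 1, Pool 2 or Pool 3, each with sites near MMP17, CISH, FHL2 and HES2 that estrogen receptor binds, as all of these sites together (ERBS), as regions adjacent to them, or as the IL1RN promoter, the control. H3K27ac and RNAPII were measured with 5 gRNA sets (Pool 1, Pool 2, Pool 3, Adjacent and IL1RN) and 2 libraries for each set and construct, 20 lists per antibody. HA, the tag on the dCas9 fusions, was measured in 5 lists counted as dCas9-VP16(10x) and 2 of dCas9-p300(core). The title of the HA list with IL1RN gRNAs names no construct. It was counted with dCas9-VP16(10x), the fusion for which the study describes HA ChIP-seq at the IL1RN promoter. None of the gRNA sets targets a Mediator gene. The cells were transfected transiently and, per the methods of the study, kept with puromycin and G418 before harvest so that cells holding both plasmids were selected. The share of cells that carried the constructs is not given, and a mark in fewer cells and less of it per cell cannot be told apart. Where separate transfections are not stated, p-values measure only the spread between these libraries.

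Mediator joins transcription factors bound at enhancers to RNA polymerase II at promoters. Its head and middle modules contact the polymerase, MED14 links the modules as a scaffold, the tail is the part that many activators bind, and a separable kinase module of CDK8 or CDK19 with cyclin C, MED12 and MED13 or their paralogues can keep the polymerase from binding. The acidic domain of VP16 is a classical activator that binds the MED25 and MED17 subunits. H3K27ac is an acetylation of histone H3 found at active promoters and enhancers, and it is a mark that p300 deposits.

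Most Mediator promoters lie in CpG-rich sequence. In the 500 bp on either side of the canonical start, GC content of the 33 genes ranged from 51.2% at MED27 to 81.7% at MED13L with a median of 58.7%, against a median of 61.2% over all 20136 genes. The 250 bases upstream of the canonical start held 8 to 40 CpG dinucleotides with a median of 19, against a median of 18 over all genes. The promoters below are those the peaks single out: MED29, the only member with an H3K27ac peak in all 20 lists, MED13 and MED13L, the paralogues whose peaks differ in the most lists (11 of 47), and the members whose promoters hold an HA peak in all 5 lists of dCas9-VP16(10x) (MED13, MED11, MED23, MED26, CDK19 and CCNC). Each run is the 250 bases before the canonical start on hg19, printed 5′ to 3′ on the strand of the gene, with CpG dinucleotides in capitals.
MED29, chr19:39881768-39882017, plus strand, 17 CpG: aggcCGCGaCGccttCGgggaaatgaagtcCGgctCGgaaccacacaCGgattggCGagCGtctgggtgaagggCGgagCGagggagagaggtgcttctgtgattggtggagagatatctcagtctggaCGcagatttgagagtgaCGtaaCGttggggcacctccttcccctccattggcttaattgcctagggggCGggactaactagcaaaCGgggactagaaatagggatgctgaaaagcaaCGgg
MED13, chr17:60142640-60142889, minus strand, 37 CpG: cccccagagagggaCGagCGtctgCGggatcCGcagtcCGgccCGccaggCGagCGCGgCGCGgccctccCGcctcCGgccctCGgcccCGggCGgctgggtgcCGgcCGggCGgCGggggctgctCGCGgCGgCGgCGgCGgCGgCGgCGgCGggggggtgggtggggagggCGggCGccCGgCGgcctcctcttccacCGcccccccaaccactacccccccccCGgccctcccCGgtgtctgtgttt
MED13L, chr12:116715499-116715748, minus strand, 40 CpG: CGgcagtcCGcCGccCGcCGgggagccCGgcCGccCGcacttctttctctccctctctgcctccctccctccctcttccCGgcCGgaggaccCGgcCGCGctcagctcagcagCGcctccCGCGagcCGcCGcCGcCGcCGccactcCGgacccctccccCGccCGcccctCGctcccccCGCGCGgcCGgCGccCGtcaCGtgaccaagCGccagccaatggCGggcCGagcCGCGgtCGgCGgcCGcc
MED11, chr17:4634473-4634722, plus strand, 15 CpG: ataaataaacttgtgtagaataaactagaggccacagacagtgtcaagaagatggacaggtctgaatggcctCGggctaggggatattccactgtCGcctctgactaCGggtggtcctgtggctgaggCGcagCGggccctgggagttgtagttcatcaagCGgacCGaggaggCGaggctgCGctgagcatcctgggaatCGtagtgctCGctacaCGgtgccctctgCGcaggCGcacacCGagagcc
MED23, chr6:131949383-131949632, minus strand, 22 CpG: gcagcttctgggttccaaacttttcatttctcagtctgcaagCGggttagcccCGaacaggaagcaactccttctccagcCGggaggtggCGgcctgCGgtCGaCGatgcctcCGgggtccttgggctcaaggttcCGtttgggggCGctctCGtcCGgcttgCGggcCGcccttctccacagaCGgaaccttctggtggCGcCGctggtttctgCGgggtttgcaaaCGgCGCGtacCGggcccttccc
MED26, chr19:16739016-16739265, minus strand, 37 CpG: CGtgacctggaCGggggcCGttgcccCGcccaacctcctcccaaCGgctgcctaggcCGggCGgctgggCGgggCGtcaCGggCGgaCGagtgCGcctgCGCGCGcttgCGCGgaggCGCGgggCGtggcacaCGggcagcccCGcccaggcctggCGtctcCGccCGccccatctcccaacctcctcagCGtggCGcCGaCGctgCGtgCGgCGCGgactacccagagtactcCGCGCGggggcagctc
CDK19, chr6:111136673-111136922, minus strand, 21 CpG: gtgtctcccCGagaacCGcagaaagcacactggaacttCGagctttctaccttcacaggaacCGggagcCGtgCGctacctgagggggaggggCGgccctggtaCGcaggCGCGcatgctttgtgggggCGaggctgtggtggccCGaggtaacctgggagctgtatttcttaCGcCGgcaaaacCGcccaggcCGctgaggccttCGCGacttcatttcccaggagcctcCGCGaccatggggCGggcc
CCNC, chr6:100016537-100016786, minus strand, 21 CpG: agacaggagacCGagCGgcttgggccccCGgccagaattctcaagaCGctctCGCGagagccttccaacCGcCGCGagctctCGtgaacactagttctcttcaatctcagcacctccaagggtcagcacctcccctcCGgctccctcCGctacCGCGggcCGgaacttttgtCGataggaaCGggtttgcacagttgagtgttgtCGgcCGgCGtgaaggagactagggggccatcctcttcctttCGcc
The windows show how wide the range of CpG content is among them, from 15 CpG at MED11 to 40 at MED13L. They are placed by the canonical start and not by the peaks. The highest HA peak of MED13 spans chr17:60142936-60143586, outside its window, and its HA summits lay a median of 785 bp from the nearest start. The window of MED29 overlaps PAF1, that of MED23 overlaps ENPP3, and that of CCNC overlaps TSTD3, all on the opposite strand. The window of MED26 overlaps the coding gene ENSG00000268790 on the same strand and a lncRNA on the other, and that of MED13 overlaps a lncRNA on the same strand. At MED29, MED26, CDK19 and CCNC it lies partly or wholly inside the member as annotated, because other transcripts of the gene start further upstream. Of the motifs searched on both strands of these windows, CCGGAAG (ETS) was found in 8 of 33 members (24.2%) and in 11.8% of all promoters, CCAAT in 33.3% and 34.2%, GGGCGG (GC box) in 66.7% and 58.6%, CACGTG (E-box) in 9.09% and 7.86%, and TATAAA in 6.06% and 9.4%. The NRF1 motif and TGACGTCA (CRE) were each found in 1 member, MED18, and in 1.48% and 2.39% of all promoters. The palindromic estrogen response element was in none of the 33 windows and in 0.0397% of all. A match is a description of the letters only.

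The lists differed in depth. RNAPII lists held 16041 to 40757 peaks, whereas H3K27ac lists held 5322 to 32052 with dCas9-VP16(10x) and 1805 to 24280 with dCas9-p300(core). Of the 10 H3K27ac lists of dCas9-p300(core), 6 had under 10000 peaks, against 1 of dCas9-VP16(10x) (Pool 3 replicate 1). HA lists held 4785 to 30740 peaks with dCas9-VP16(10x), and 154 and 141 with dCas9-p300(core). Read totals were not in the files used, so the number of peaks stands in for depth, and it also depends on how well each immunoprecipitation worked. Peak names of some libraries open with a number, called the run identifier here, although no label says what it stands for. All RNAPII libraries of dCas9-p300(core) share an identifier that no RNAPII library of dCas9-VP16(10x) has. For RNAPII the identifier and the construct therefore cannot be told apart. H3K27ac libraries of both constructs are split between that identifier, called the shared run (5 and 6), and libraries with no identifier (5 and 4). For the HA, the IL1RN promoter had a peak of 142.7-fold in the list with IL1RN gRNAs and of 8.5-fold in 1 other list. The epithelial genes KRT8, KRT18, KRT19, EPCAM and CDH1 had RNAPII peaks in all 20 lists and H3K27ac peaks in 11 to 20, while PTPRC, CD3E, VWF, ALB and MYOD1 had neither in any list. The H3K27ac library titled dCas9-VP16(10x) Pool 1 replicate 2 has peak names that bear the mark of the other construct, so its construct is in doubt, and the label of dCas9-VP16(10x) Adjacent replicate 1 for H3K27ac also lists the IL1RN gRNAs. Without either library, the number of members with H3K27ac in every list was still 1 and no member was called for H3K27ac between constructs.

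RNAPII was at nearly every Mediator promoter. All 33 members had a peak in at least 1 list (72.5% of all genes), and 23 had a peak in all 20 (43% of all genes). With dCas9-VP16(10x), 30 to 33 of the 33 had a peak in a list (49.8 to 62.6% of all genes). With dCas9-p300(core), 29 to 32 did (48.2 to 69.4%). Levels are given as fold enrichment over background, the value of the peak caller, or as relative enrichment, which is that value divided by the median of the same library over the promoters with a peak in every library of the antibody. MED22, a head subunit, had the highest median relative RNAPII enrichment of all members with each construct, from 1.81 to 2.48 with a median of 2.13 over the 10 dCas9-VP16(10x) libraries. Its start lies 87 bp from that of RPL7A, a ribosomal protein gene on the other strand, and the peaks of the pair cannot be told apart. MED26, a middle subunit that recruits elongation factors, followed with 1.15 to 1.83 and a median of 1.37, and MED14, the scaffold, with 0.746 to 1.61 and a median of 1.33. These ranges of MED26 and MED14 overlap each other, and that of MED22 overlaps that of MED26 only at its lowest end. Over the dCas9-p300(core) libraries, MED22 spanned 1.03 to 3.03 with a median of 1.69 and MED26 1.46 to 1.84 with a median of 1.6, and MED26 was the higher of the pair in 5 of 10. MED10 of the middle followed there with a median of 1.29, above MED14 with 1.06, and the ranges of all of these genes overlap. With dCas9-VP16(10x), MED24, a tail subunit, was at the lower end with 0.21 to 0.503 and a median of 0.365. MED27, another tail subunit, had a peak in only 7 of the 10 dCas9-VP16(10x) lists, at 0.327 to 0.491. With dCas9-p300(core), MED24 had a peak in 4 of the 10 lists, at 0.224 to 0.599, and MED27 in 3, at 0.274 to 0.391. Neighbouring start sites are common in the family, since MED17 starts 109 bp from TAF1D, MED31 157 bp from C17orf100, MED23 200 bp from ENPP3 and MED29 224 bp from PAF1, so peaks at these members can belong to either gene.

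**Figure D1:**
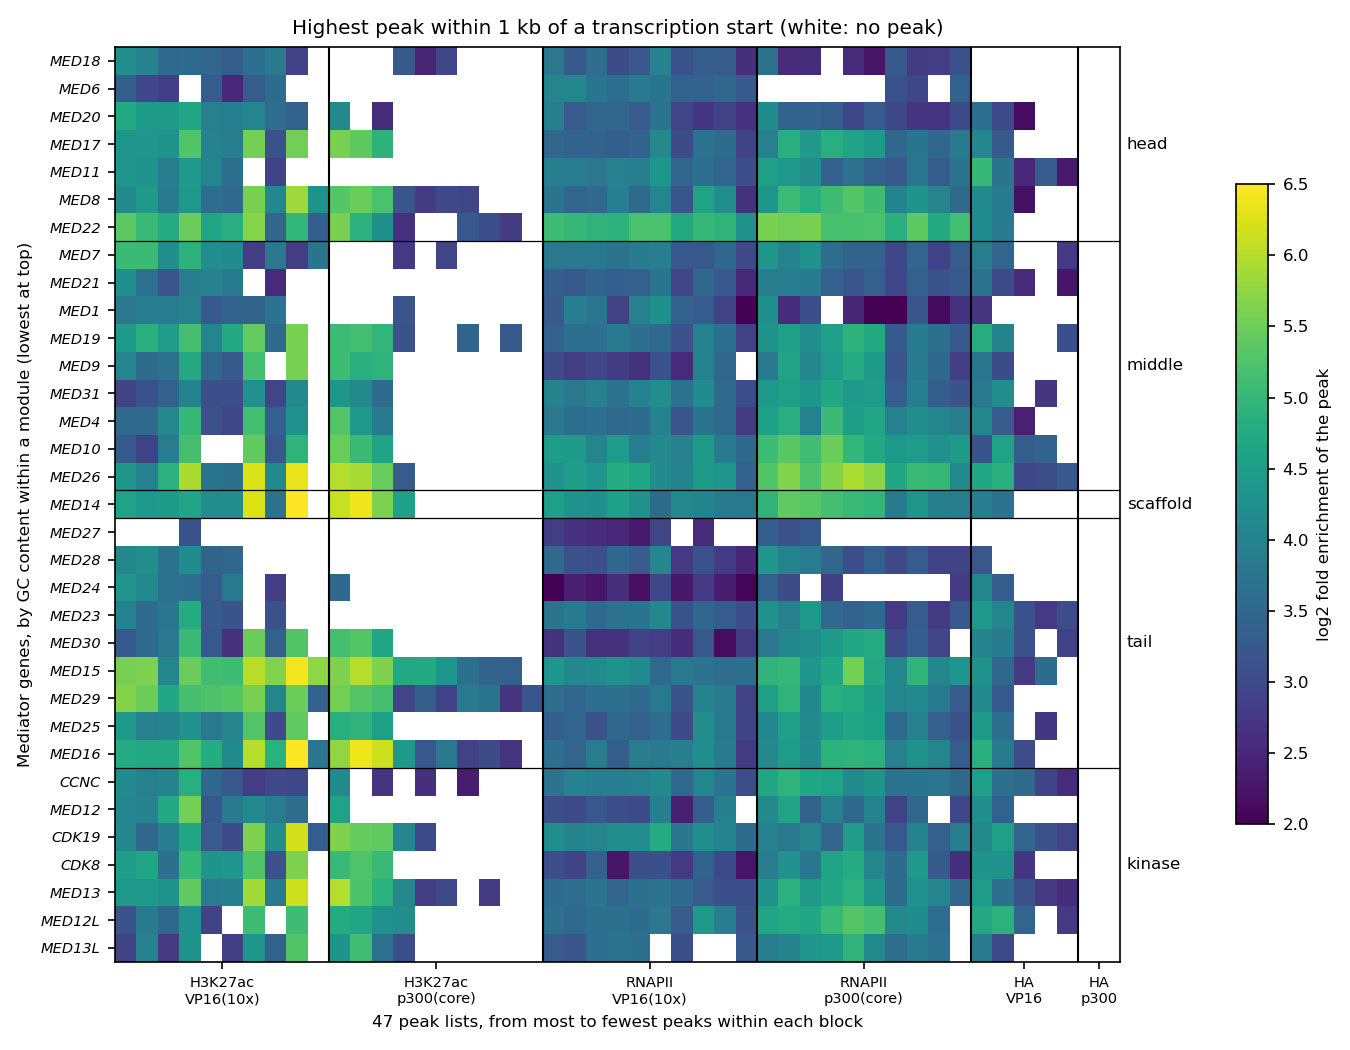
Heat map of the highest peak within 1 kb of a transcription start for the 33 Mediator genes (rows, by module and GC content) in the 47 peak lists (columns, by antibody and construct, from most to fewest peaks). Color is log2 fold enrichment and white is no peak. RNAPII fills nearly all cells, H3K27ac with dCas9-p300(core) fills 34.5% of them against 83.6% with dCas9-VP16(10x), and HA with dCas9-p300(core) fills none.

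H3K27ac peaks at Mediator promoters were less uniform. All 33 members had a peak in at least 1 list (69.4% of all genes). MED29, a tail subunit, was the only member with a peak in all 20, and 2.23% of all genes had the same. With dCas9-VP16(10x), 24 of the 33 had a peak in at least 8 of the 10 lists (45.6% of all genes), and 7 in all 10 (MED8, MED22, MED7, MED15, MED16, MED29 and CDK19; 14.6% of all genes). With dCas9-p300(core), 1 member, MED29, had a peak in all 10 lists (2.31% of all genes), 3 had one in at least 8 of the 10 lists (MED15, MED16 and MED29; 6.36% of all genes) and 6 had none in any (MED6, MED11, MED21, MED23, MED27 and MED28; 35.9% of all genes). Each of these counts moves with the depth of the lists. In the 9 dCas9-VP16(10x) lists of at least 10000 peaks, 25 to 32 members had a peak (46.2 to 65.2% of all genes), and in the 4 such lists of dCas9-p300(core) 15 to 24 did (32.2 to 62.2%). In the shallow list of dCas9-VP16(10x) Pool 3 replicate 1, 7 members had a peak (15% of all genes), and in the 6 shallow lists of dCas9-p300(core) 1 to 8 did (4.63 to 16.1%). Over the 13 deep lists of both constructs, 10 members had a peak in every list (MED8, MED22, MED19, MED26, MED14, MED15, MED16, MED29, MED13 and CDK19), as had 26.8% of all genes.

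By module, the head genes had H3K27ac peaks in 87.1% of the gene and list pairs with dCas9-VP16(10x) and in 31.4% with dCas9-p300(core). The middle genes had them in 84.4% and 27.8%, the tail genes in 76.7% and 38.9%, and the kinase module genes in 87.1% and 40.0%. Every module held both well covered and poorly covered members. In the tail, MED15 had enrichments of 16.8 to 85.3 (median 48.3, 10 lists) with dCas9-VP16(10x) and of 10.4 to 64.2 (median 26.5, 9 lists) with dCas9-p300(core). MED16 had 13.7 to 95.6 (median 27.3, 10 lists) and 6.45 to 83.2 (median 14.0, 9 lists). MED27 had a single H3K27ac peak in 20 lists, of 8.76 in dCas9-VP16(10x) Adjacent replicate 2. MED27 had the lowest GC content of all members, and no other tail gene had a peak in under 6 lists of dCas9-VP16(10x).

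MED29 had H3K27ac enrichments of 10.7 to 50.6 (median 38.8) with dCas9-VP16(10x) and of 6.5 to 46.7 (median 11.7) with dCas9-p300(core). The raw values of the constructs overlap widely, because both Adjacent libraries and the IL1RN replicate 1 library of dCas9-p300(core), at 36.0 to 46.7, lie near the median of dCas9-VP16(10x), and of its other 7 libraries, at 6.5 to 14.4, IL1RN and Pool 1 replicate 2 also lie within the range of dCas9-VP16(10x). The highest peak of MED29 spans chr19:39880851-39881816, in dCas9-VP16(10x) Pool 2 replicate 2, with its summit 391 bp from the nearest start. That of MED13 spans chr17:60142042-60143384, in dCas9-VP16(10x) IL1RN replicate 1, at 71.6-fold.

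MED13 and MED13L, which anchor the kinase module to the rest of the complex, differed in presence. MED13 had H3K27ac peaks in 9 lists of dCas9-VP16(10x), at 14.6 to 71.6 (median 21.0), and in 7 of dCas9-p300(core), at 6.97 to 63.7 (median 17.3). MED13L had them in 8 lists, at 6.78 to 39.0 (median 13.4), and in 4, at 8.49 to 35.0 (median 16.5). RNAPII was at MED13 in all 20 lists and at MED13L in 7 of dCas9-VP16(10x) and 9 of dCas9-p300(core). The 3 dCas9-VP16(10x) RNAPII lists without a MED13L peak were Pool 1, Pool 2 and Pool 3 replicate 2, which are also the 3 with no run identifier. MED13L has the most GC-rich promoter of the family. Of the other paralogues, peaks at MED12 and MED12L differed in 10 of 47 lists and those at CDK8 and CDK19 in 5.

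The presence of H3K27ac varied with promoter GC content among the members. GC content is that around the canonical start, whereas a peak counted at any start. At MED15 the canonical start is chr22:20861897, while its highest H3K27ac peak spans chr22:20849171-20850978. The GC content of such a member is not that of the sequence under the peak. The 6 members in no dCas9-p300(core) list had GC contents of 51.2 to 58.6% (median 52.2%), the 19 in 1 to 4 lists 51.7 to 81.7% (median 58.7%), and the 8 in at least 5 lists 56.2 to 68.3% (median 61.6%). The most GC-rich members, MED13L, MED12L, MED26 and MED14, each had a peak in 4 dCas9-p300(core) lists, so the number of lists did not keep rising with GC content. Across the 33 genes, which share the same libraries, Spearman's rho between GC content and the number of lists with a peak was 0.70 for dCas9-p300(core) and 0.38 for dCas9-VP16(10x). The run identifier moved with the same members. MED6, MED11, MED21, MED23 and MED28 had a peak in all 5 dCas9-VP16(10x) lists without a run identifier, but in 1 or 2 of the 5 dCas9-VP16(10x) lists and in none of the 6 dCas9-p300(core) lists of the shared run. Of genes with a peak in at least 6 dCas9-VP16(10x) lists, 5 of 32 members and 4.76% of all genes had none with dCas9-p300(core), a limit of 6 that was set after these values were seen. Across all genes, rho between enrichment and GC content within a library was 0.074 to 0.35 and 0.13 to 0.36 in the shared run (dCas9-VP16(10x) and dCas9-p300(core)), and 0.031 to 0.12 and -0.0061 to 0.10 in the other libraries. The part of GC content, run and depth in the missing peaks was not tested.

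**Figure D2:**
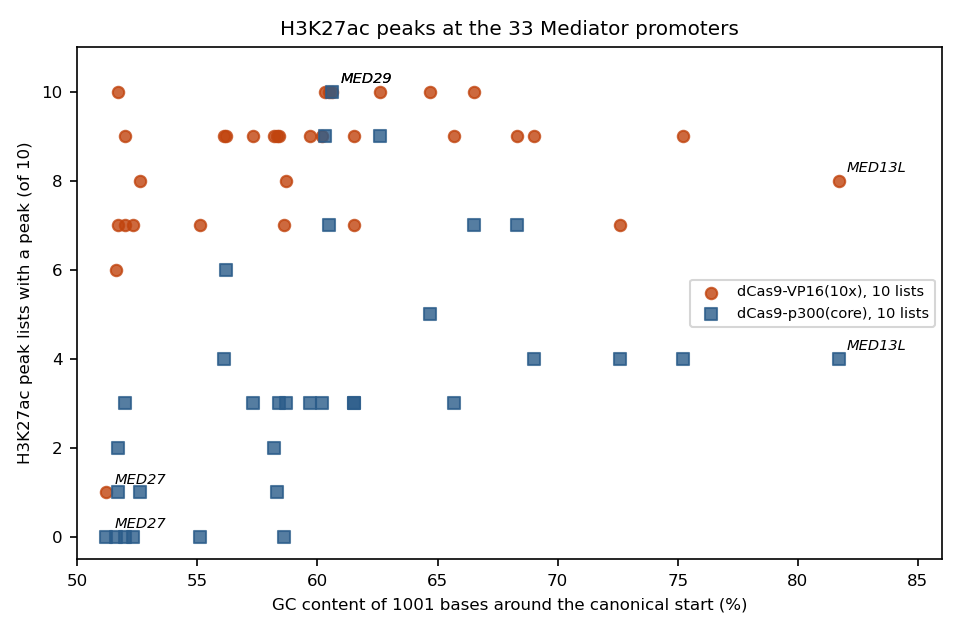
Number of H3K27ac peak lists with a peak (of 10 per construct, y axis) against the GC content around the canonical start (x axis, %) for the 33 Mediator genes, circles for dCas9-VP16(10x) and squares for dCas9-p300(core). The squares at 0 lists are the 6 members from 51.2 to 58.6% GC, while MED29 sits at 10 lists for both constructs.

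The comparison of constructs asks whether H3K27ac at the promoters of an activator's own partners differs between a VP16 and a p300 fusion. Only MED15, MED16 and MED29 had H3K27ac peaks in at least 8 of 10 libraries of each construct and could be tested among 1281 genes. Relative enrichment of MED15 was 0.605 to 3.15 (median 1.16) with dCas9-VP16(10x) and 0.836 to 2.2 (median 1.13) with dCas9-p300(core). That of MED16 was 0.588 to 1.15 (median 0.887) and 0.676 to 1.46 (median 0.907), and that of MED29 0.522 to 1.32 (median 0.854) and 0.474 to 1.31 (median 0.747). All of these ranges overlap. The log2 differences (dCas9-VP16(10x) minus dCas9-p300(core)) were -0.09 (SE 0.20) at MED15, -0.17 (SE 0.19) at MED16 and 0.16 (SE 0.21) at MED29, with limma adjusted p-values of 0.957, 0.874 and 0.901. The background of calls was 0% of the 1281 genes, with 82 genes and 0 of the 3 members at an unadjusted p under 0.05. MED15 and MED16 lacked a peak in 1 dCas9-p300(core) library each, which the fit left out. Without division by the library median, 1 of the 3 members and 462 genes were called, all higher with dCas9-VP16(10x).

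RNAPII could be compared at 29 members. Relative to the median of each library, 9 of the 29 were higher with dCas9-VP16(10x) and 0 were lower at an adjusted p of 0.05, whereas without division by that median 2 were higher and 16 lower, beside 43 higher and 8595 lower of all 10889 genes. The background was 13.5% of 10889 genes called higher and 10.4% called lower (23.8% in all), and 13 of the 29 members and 4037 of all genes had an unadjusted p under 0.05. The median difference over all 10889 genes was -0.01 on the log2 scale as fitted and -0.75 without the division, so all changes below are relative to the library. The 9 were MED11, MED18 and MED20 of the head, MED1, MED7, MED21 and MED31 of the middle, MED23 of the tail and CDK19 of the kinase module. No member had every dCas9-VP16(10x) library above every dCas9-p300(core) library (0.34% of all genes tested had) or every one below (0.45%), so the ranges of the constructs overlap at each of the 9.

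In the head, relative RNAPII enrichment at MED18 was 0.548 to 1.02 (median 0.662) with dCas9-VP16(10x) and 0.158 to 0.756 (median 0.332) with dCas9-p300(core), where 1 library had no peak and was left out. The fold difference at MED18 was 2.28 (log2 1.19, SE 0.26, limma adjusted p = 0.00406). MED20 had 0.37 to 1.0 (median 0.696) and 0.22 to 0.694 (median 0.352), 1.71-fold higher (adjusted p = 0.00716), in a promoter shared with BYSL. The summit of its highest RNAPII peak lay a median of 12 bp from the nearest start with dCas9-VP16(10x) and 391.5 bp with dCas9-p300(core). The values compared at MED20 may therefore come from different positions. MED11 had 0.713 to 1.31 (median 1.0) and 0.33 to 1.12 (median 0.638), 1.63-fold higher (adjusted p = 0.0122). MED6, also of the head, had too few peaks to be tested. It had a peak in all 10 dCas9-VP16(10x) lists, at 9.51 to 16.8, and in 3 of dCas9-p300(core), at 7.9 to 10.6. With MED24 of the tail, in 10 and 4 lists, it was among 31 genes (0.154% of all) with RNAPII in all 10 lists of dCas9-VP16(10x) and at most 4 of dCas9-p300(core), a limit that was set after the values of both genes were seen. GC content was 52.0% at MED6 and 51.7% at MED24.

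In the middle module, the largest difference of all members was at MED1, the subunit that nuclear receptors contact, including estrogen receptor. Its relative RNAPII enrichment was 0.414 to 1.22 (median 0.772) with dCas9-VP16(10x) and 0.117 to 0.731 (median 0.252) over 9 libraries of dCas9-p300(core), 2.52-fold higher with dCas9-VP16(10x) (log2 1.33, SE 0.31, limma adjusted p = 0.00521). The raw enrichments of MED1 are low, at 3.79 to 19.1 (median 10.2) and 3.58 to 19.1 (median 6.01). MED7 had 0.533 to 0.975 (median 0.889) and 0.302 to 0.847 (median 0.498), 1.67-fold higher (adjusted p = 0.00465). MED21, the partner of MED7 in the hinge of the module, had 0.61 to 0.86 (median 0.661) and 0.258 to 0.833 (median 0.502), 1.46-fold higher (adjusted p = 0.0173). MED31 had the smallest difference of the 9, at 0.767 to 1.18 (median 1.03) and 0.586 to 0.81 (median 0.751), 1.38-fold higher (adjusted p = 0.00277). MED4, MED9, MED10, MED19 and MED26, the other members of the middle, did not pass the test, with log2 differences from -0.25 at MED9 to 0.13 at MED19.

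In the tail, MED23, which several signal-responsive factors bind, had 0.64 to 1.1 (median 0.863) with dCas9-VP16(10x) and 0.298 to 0.836 (median 0.457) with dCas9-p300(core), 1.72-fold higher (log2 0.78, SE 0.17, limma adjusted p = 0.00373), at a start shared with ENPP3. MED25, a subunit that VP16 binds, did not pass the test, with 0.587 to 1.06 (median 0.747) and 0.598 to 0.774 (median 0.725) and a log2 difference of 0.11 (SE 0.10, adjusted p = 0.407). MED17, the other, had 0.683 to 1.11 (median 0.733) and 0.604 to 1.22 (median 0.726) and a log2 difference of 0.00 (SE 0.12, adjusted p = 0.993). In the kinase module, CDK19 had 1.07 to 1.74 (median 1.21) and 0.345 to 1.27 (median 0.602), 2.04-fold higher with dCas9-VP16(10x) (log2 1.03, SE 0.15, adjusted p = 0.000457). A single dCas9-p300(core) library, IL1RN replicate 1 at 1.27, lay above the lowest of dCas9-VP16(10x) at CDK19. CDK8, its paralogue, had 0.319 to 0.708 (median 0.544) and 0.528 to 1.06 (median 0.594), and a log2 difference of -0.28 (SE 0.14, adjusted p = 0.141). The paralogues were not compared with each other in a test. CCNC, the cyclin that both kinases bind, had a log2 difference of 0.32 (SE 0.12, adjusted p = 0.0512), and MED12, MED12L and MED13 had 0.26, -0.11 and -0.09.

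**Figure D3:**
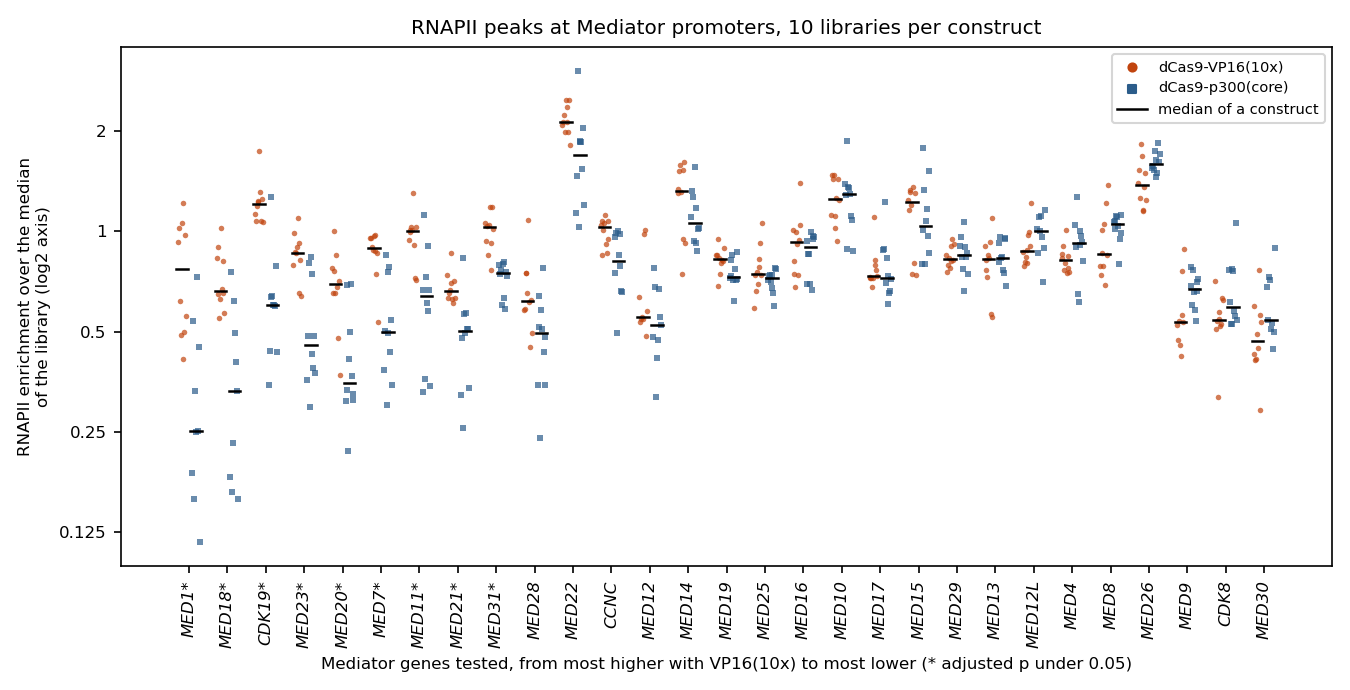
Relative RNAPII enrichment (y axis, log2 scale, 1 is the median of the library) of the 29 Mediator genes tested (x axis), circles for the dCas9-VP16(10x) libraries, squares for the dCas9-p300(core) libraries and a bar at the median of each construct. The 9 genes with an asterisk passed an adjusted p of 0.05, all higher with dCas9-VP16(10x) relative to the library median (2 higher and 16 lower without the division by it), and the points of the constructs overlap at each.

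The RNAPII difference also followed GC content. Over the 29 members, Spearman's rho between the log2 difference and GC content was -0.52, and over all 10889 genes it was -0.37. GC content is that of the canonical start here too, which at MED15 lies outside its highest RNAPII peak (chr22:20849255-20850999). The 9 members called had a median GC content of 55.1% (51.7 to 64.7%) and the 20 others 60.6% (51.6 to 75.2%), and over all genes the median was 57.8% for those called higher and 67.2% for those called lower. After the trend with GC content was removed from each library, 9 members were called higher and 2 lower, beside 1213 and 1144 of all 10889 genes, and 8 of the 9 higher ones were called before. CDK19, at 64.7% GC the most GC-rich of the 9, had a log2 difference of 1.09 after this step, MED1 1.06, MED18 0.91 and MED20 0.60. MED21 was no longer called (0.26, adjusted p = 0.0887), while MED22 was called higher (0.50, adjusted p = 0.0235) and MED9 and MED30 lower (-0.41 and -0.57, adjusted p = 0.0429 and 0.0207). With only the 7 dCas9-VP16(10x) libraries that share a run identifier, 10 of 30 members were called higher and 2 lower. The counts over all 10631 genes were 1769 and 1392. These fits do not separate the construct from the run identifier.

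**Figure D4:**
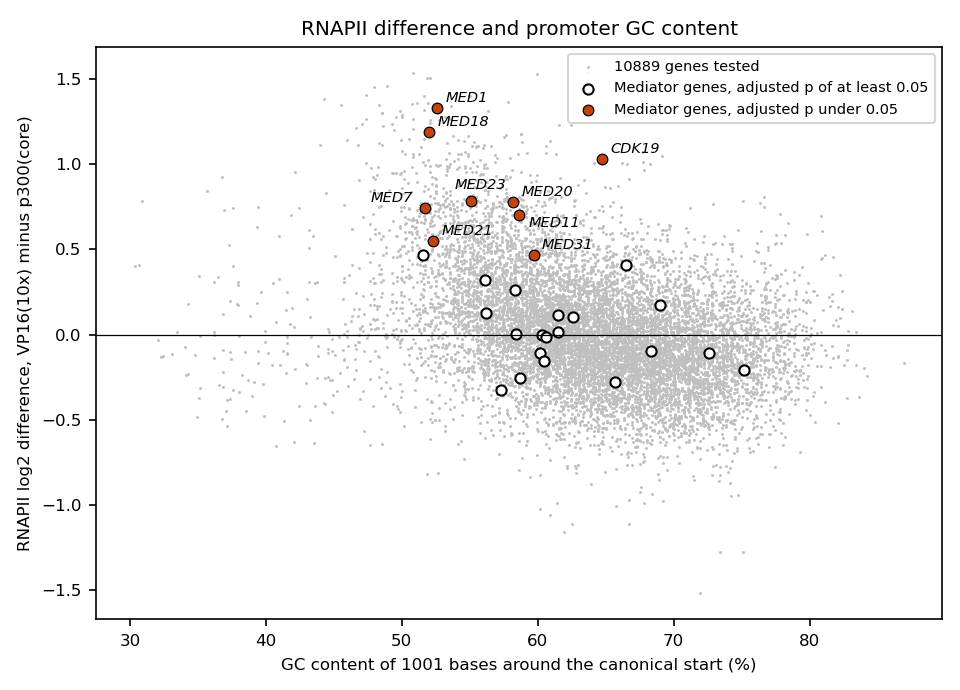
RNAPII log2 difference, dCas9-VP16(10x) minus dCas9-p300(core) relative to the library median (y axis), against GC content around the canonical start (x axis, %), with 10889 genes in gray, the 20 Mediator genes that did not pass the test as open circles and the 9 that did as filled circles with names. CDK19 lies at 64.7% GC and a difference of 1.03, to the right of the other 8, which lie at 51.7 to 59.7%.

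To ask whether gRNAs for enhancers change the marks at Mediator promoters, the 8 libraries with Pool 1, Pool 2, Pool 3 or Adjacent gRNAs were compared with the 2 IL1RN libraries of the same construct. No member passed an adjusted p of 0.05 by limma, for either antibody or construct, and neither did any of the genes tested (background 0% of 1281 for H3K27ac and of 10889 and 10888 for RNAPII). At an unadjusted p under 0.05 there were 29 genes for H3K27ac with dCas9-VP16(10x), 11 with dCas9-p300(core), 349 for RNAPII in dCas9-VP16(10x) and 485 for RNAPII in dCas9-p300(core), and only the last held members, CDK19 and MED15. RNAPII log2 differences of the 29 members (targeted minus IL1RN) ran from -0.47 at MED20 to 0.51 at MED1 with dCas9-VP16(10x) and from -0.73 at CDK19 to 0.30 at MED28 with dCas9-p300(core), and adjusted p-values were at least 0.976. For H3K27ac, the differences ran from -0.31 at MED16 to 0.22 at MED15 and from -0.24 at MED29 to 0.33 at MED15. Without dCas9-p300(core) IL1RN replicate 2, CDK19 (-1.24, adjusted p = 0.0276) and MED22 (-0.94, adjusted p = 0.0404) were called lower for RNAPII, among 269 genes called higher and 240 lower of 9379. That fit has 1 control library left, which is assumed to vary like the libraries of the other groups. The IL1RN pair of dCas9-p300(core) was the least alike of the 10 RNAPII pairs. Its log2 ratio over shared promoters had an SD of 0.754, against 0.297 to 0.568 in the others. For H3K27ac, the IL1RN pairs of both constructs had the largest SDs. The dCas9-VP16(10x) pair was at 1.17, the dCas9-p300(core) pair at 1.04, and the other H3K27ac pairs at 0.413 to 0.968. The H3K27ac comparisons thus rest on control libraries that differ widely, and their lack of calls does not show that no change occurred. No difference between the constructs in the effect of targeting passed the test at a member (limma, 0 of 10888 genes for RNAPII and 0 of 1281 for H3K27ac, adjusted p at least 0.892 over the members), with CDK19 nearest at an unadjusted p of 0.0532.

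HA peaks, which mark chromatin enriched with the HA antibody, were also found at Mediator promoters although no gRNA targets them. No HA list comes from cells without a fusion. Binding of the fusion and recovery of promoters without it therefore cannot be told apart. The study reports no overlapping HA peaks outside its targets, and took untargeted promoters as regions of background HA signal. With dCas9-VP16(10x), 30 of the 33 members had an HA peak in at least 1 of the 5 lists (69.7% of all genes), and 6 had it in all 5 (14.5% of all genes). Of genes with RNAPII in all 20 lists, 6 of 23 members and 28.8% of all had HA peaks in all 5, and 23 of 23 and 99.4% had one in at least 1. With dCas9-p300(core), 0 of the 33 had a peak in either list, where 0.477% of all genes did. Lists with more peaks held more members. Adjacent replicate 2 and ERBS replicate 2 (25109 and 30740 peaks) held 28 and 30 of 33 (67.0 and 68.5% of all genes). The other 3 (4785 to 8149 peaks) held 10 to 16 (20.4 to 33.6% of all genes). HA is given by the deposited construct labels, except for the list with IL1RN gRNAs, whose title names no construct. Whether the ERBS lists of dCas9-VP16(10x) come from separate libraries was not tested.

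MED26 had HA enrichments of 28.9 in Adjacent replicate 2, 25.9 in ERBS replicate 2, 9.61 in Adjacent replicate 1, 8.42 in ERBS replicate 1 and 7.88 with IL1RN gRNAs. CDK19 had 23.4, 17.9, 7.68, 8.69 and 11.1 in the same order. MED11 had 13.2, 32.2, 5.03, 9.97 and 5.75. At each of these genes, the pair of lists with the most peaks was higher than the other 3. MED23 ranged from 6.72 to 21.7, CCNC from 5.92 to 23.4 and MED13 from 6.0 to 22.1 over the 5 lists. The list with IL1RN gRNAs had peaks at all 6. The members with no HA peak were MED6, MED18 and MED27, which have GC contents of 52.0, 52.0 and 51.2%. MED1 and MED28 had a peak only in ERBS replicate 2, at 6.47 and 9.38. At a similar GC content, MED21 (52.3%) had a peak in 4 of the 5 lists and MED7 (51.7%) in 3. By module, HA peaks filled 74.3% of the gene and list pairs in the kinase module, 62.2% in the middle, 53.3% in the tail and 42.9% in the head. Over all 33 members they filled 57.6%, and 20.4 to 68.5% of all genes had a peak in a list. The differences between modules were not tested.

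**Figure D5:**
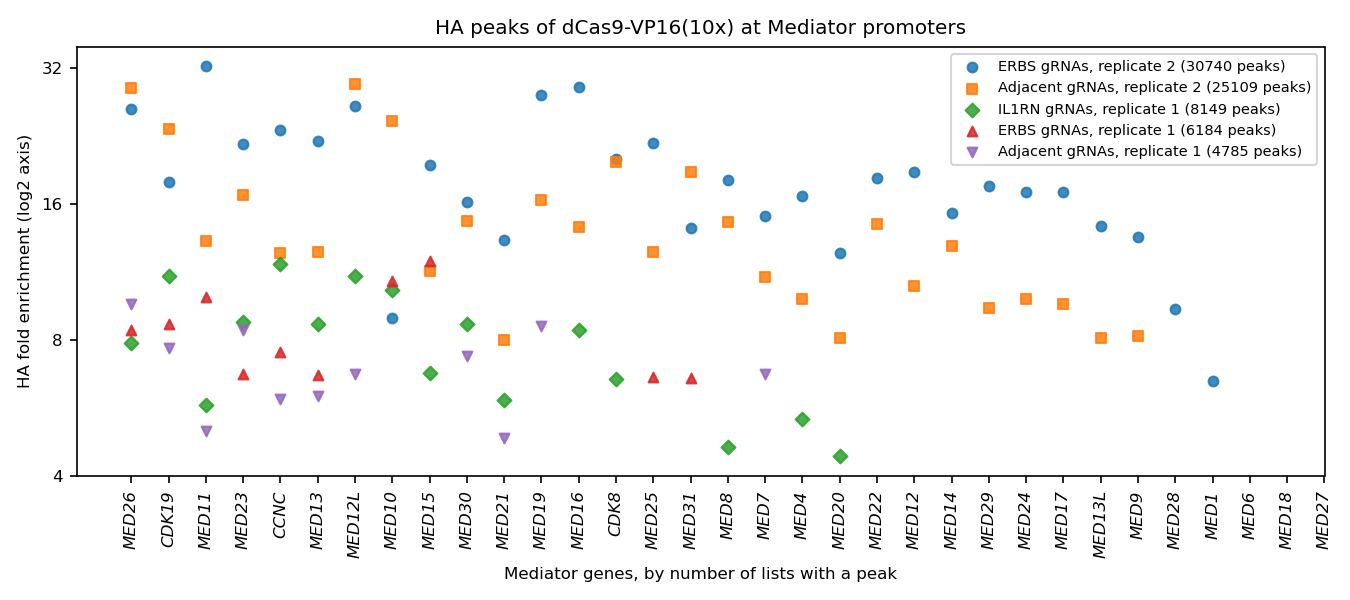
HA fold enrichment (y axis, log2 scale) at the 33 Mediator genes (x axis, by the number of lists with a peak) in the 5 lists of dCas9-VP16(10x), each with its own symbol, a missing symbol meaning no peak. The 2 lists with the most peaks (25109 and 30740) lie above the others at most genes, and MED6, MED18 and MED27 have no symbol.

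The other genes of the preinitiation complex, 44 that encode RNA polymerase II, general transcription factors and TFIID, gave a reference. RNAPII was in all 20 lists at 40 of the 44. Of 41 tested, 13 were higher with dCas9-VP16(10x) relative to the library median and 0 lower, with a median difference of 0.23 against -0.01 over all genes. H3K27ac was in no dCas9-p300(core) list at 7 of the 44, and in at least 8 dCas9-VP16(10x) lists at 36. HA was in all 5 dCas9-VP16(10x) lists at 5 of the 44. The difference between these genes and the Mediator genes was not tested.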

How the data were processed

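The authors deposited 47 peak lists on hg19, made per library with Bowtie 1.1.2, SAMtools, bedtools and MACS2 2.1.0.20140616 per the submitters' processing notes. The authors computed the fold enrichment of each peak as a ratio over background with MACS2 before the files were deposited. The authors also deposited its p-value as -log10, at least 10 in every list, called per library and not on pooled libraries. A deposited table of targeted regions was not used here. Peaks within 1 kb of a GENCODE 44 start (lifted to hg19) were assigned to 20136 protein-coding genes. log2 enrichment was centred on the median over genes with a peak in every library of the antibody (449 for H3K27ac, 8658 for RNAPII), genes with a peak in at least 8 of 10 libraries of each construct were fitted with limma 3.58.1 (R 4.3.3), with gRNA pool as a term in the comparison of constructs, absent peaks were left out, and p-values were adjusted by Benjamini-Hochberg over all genes. The fit was tested on simulated data. The member genes, the other lists, the tests and the sequences shown were chosen with earlier results of these data known. All members may be named, and of the other preinitiation complex genes the counts are given. PECAM1, a planned marker, was not matched by symbol. H3K27ac replicate numbers deviated together (correlations of 0.207 to 0.915 in the 5 pools, lowest in Adjacent), and those of RNAPII did not. In every pool but Adjacent, H3K27ac replicate 1 has the shared run identifier and replicate 2 has none, with both constructs. Pairing of the samples and the run identifier therefore cannot be told apart. With a replicate block, 0 members were called for H3K27ac between constructs. The values printed for both are from the fit without the replicate block, which was an alternative. Alternatives were other distances, filters and centring, blocks, GC correction, deeper or same-run libraries and leaving out each library.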

Additional observations from a re-analysis of the deposited data

Results flagged for a closer look

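Among 64 groups of RNAPII or H3K27ac libraries, a member gene in a construct, 5 held a library far from the others by Dixon's test, where chance flags about 1 in 20 groups. Values are relative RNAPII enrichment on the log2 scale, 10 libraries per group. At CDK19, dCas9-VP16(10x) Pool 1 replicate 2 was the highest at 0.80 (next 0.39). At MED17, the same library was the highest at 0.15 (next -0.29). At CDK8, dCas9-VP16(10x) IL1RN replicate 2 was the lowest at -1.65 (next -0.97). At MED7, dCas9-VP16(10x) Pool 3 replicate 2 was the lowest at -0.91 (next -0.43). At MED8, dCas9-p300(core) Pool 2 replicate 1 was the lowest at -0.33 (next -0.08). Calls at CDK19 and MED7 held when each library was left out in turn, with adjusted p-values of at most 0.00144 and 0.0117.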

How the results depend on the processing

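Division by the library median decided the direction of RNAPII, since without it 18 members were called, 2 higher and 16 lower with dCas9-VP16(10x), in place of 9 higher (43 higher and 8595 lower of all 10889 genes). MED1 (0.64) and MED18 (0.49) were the 2, while MED31, MED11 and MED21 changed sign (-0.26, -0.02 and -0.17), and for H3K27ac 1 member was called. Under the other 10 settings, 7 to 12 members were called for RNAPII, beside 1648 to 3161 of all genes. The 7 were of 23 members with a peak in every library, beside 1958 of 8658 genes. With the GC trend removed, and with the same-run libraries, 2 of the members called were lower. The replicate block gave 11 (9 without it, CCNC and MED22 added), but RNAPII numbers did not deviate together (correlations of -0.128 to 0.233), so the samples share only a number, and with the block no other call changed. Leaving out 1 library gave 9 to 12 members for RNAPII between constructs, 0 for H3K27ac, 0 for RNAPII targeting with dCas9-VP16(10x) and 0 to 2 with dCas9-p300(core), and 0 for H3K27ac targeting. MED30 was called lower without dCas9-VP16(10x) Pool 2 replicate 1 and MED9 without replicate 2. Over all genes, 1915 to 3440 were called for RNAPII between constructs with 1 library left out. Members with H3K27ac in every list numbered 0 with a -log10 p of at least 20, 10 in lists of at least 10000 peaks, and 1 to 3 with 1 library left out, 3 without dCas9-p300(core) Pool 3 replicate 2. With RNAPII in every list they numbered 22 to 25, and with HA in any list 28 to 30. The GC and depth alternatives and, for RNAPII, the same-run alternative were chosen after seeing the data. No run block could be fitted between constructs for RNAPII. Peak numbers limit H3K27ac, since a missing peak in a shallow list does not show that the mark is absent.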
